A study of Mus musculus with 10 samples.

Results

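The antioxidant and redox defence genes were examined as a set of 39 genes, taken by symbol from the 25078 genes of the deposited count table. All 39 were found there. They comprised 6 peroxiredoxins, 5 glutathione peroxidases, 5 genes of the thioredoxin system, 4 glutaredoxins, 3 genes for superoxide dismutases and catalase, 5 for glutathione synthesis and NADPH, 5 for heme oxygenases, the quinone reductase and repair reductases, 2 microsomal glutathione transferases, 2 ferritin chains, and Nfe2l2 with Keap1. RNA-seq had been performed on LSK cells (lineage-negative, Sca-1+, c-Kit+ bone marrow cells, a mixture of stem cells and early progenitors) from the marrow of 10 mice, 5 CM and 5 CM/miR-126Δ/Δ, each mouse giving 1 library. CM mice (Cbfb 56M/+ with Mx1-Cre) carry a conditional knock-in of the Cbfb-MYH11 fusion of inv(16) acute myeloid leukemia, and CM/miR-126Δ/Δ mice have miR-126 flox/flox alleles in addition to Cbfb 56M/+ and Mx1-Cre. The lines carrying these alleles had been backcrossed to C57BL/6. Mice of both sexes received 7 doses of poly(I:C) at 14 mg/kg from an age of 6 to 8 weeks, and the cells were taken 6 weeks after induction, at the pre-leukemic stage. Both groups therefore carried CM and Mx1-Cre, and both had been exposed to poly(I:C), an interferon inducer that switches on Mx1-Cre in many cell types besides LSK cells. No group without CM was part of the comparison, so the values show how CM/miR-126Δ/Δ LSK differed from CM LSK and not what CM changed. Any other difference between the mice of the genotypes cannot be told apart from the deletion.

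Aerobic cells form superoxide, which superoxide dismutases convert to hydrogen peroxide. Catalase, the peroxiredoxins and the glutathione peroxidases remove the peroxide, and thioredoxin, glutaredoxin and glutathione return the oxidised enzymes to their reduced state with NADPH as the final donor. The transcription factor NRF2 (gene Nfe2l2), which KEAP1 (Keap1) marks for degradation until oxidants or electrophiles modify KEAP1, drives many of these genes through antioxidant response elements in DNA, and low oxidant levels are a known feature of quiescent hematopoietic stem cells.

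The 3p arm of the deleted miRNA is shown first, because the genes of the set were searched for matches to it. The 5p arm, the other product of the same hairpin, was not searched here. The mature miR-126a-3p, encoded on chr2:26591402-26591423 (plus strand, GRCm38.p6) within Egfl7, is printed with the seed, bases 2 to 8, in capitals.
miR-126a-3p: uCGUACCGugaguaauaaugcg
The 7-base complement of that seed, CGGTACG, was present in the 3′ untranslated region of 0 of the 39 genes, against 0.211% of 19915 genes with such a region in the GENCODE M1 transcripts. The 6-base complement, GGTACG, was present in 1 of the 39 genes, against 2.95% of all genes. This was Glrx2, which encodes a mitochondrial and nuclear glutaredoxin, and the site began at base 848 of a region of 3037 bases. It is shown with its flanks and with the 6-base site in capitals.
Glrx2 site: ataacctgatatGGTACGcgaggtgaggcc
Glrx2 itself had a fitted log2 fold change of −0.02 (95% interval −0.17 to 0.13) in CM/miR-126Δ/Δ against CM LSK. Its level in CPM (counts scaled to the TMM-adjusted library size) was 27.1 to 32 in CM and 27.4 to 29.6 in CM/miR-126Δ/Δ LSK, so the groups overlapped almost fully.

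The promoters were searched for the core of the antioxidant response element, TGACNNNGC, on both strands in the 250 bases before the RefSeq start of each gene. It was present in 7 of the 34 genes of the set with a promoter in the table (20.6%), against 11.5% of 27025 genes and 14.1% of 9096 genes having a mean RPKM (reads scaled to exon length and library size) of at least 1. The 7 genes were Nfe2l2, Gclm, Prdx1, Mgst1, Txnrd1, Sod1 and G6pdx. Prdx6, Gclc, Gsr, Hmox1 and Msra were not in the promoter table. The 4 sites below are shown because Sod1 and Prdx1 are described in full and Gclm and Txnrd1 are textbook NRF2 targets. Each is given 5′ to 3′ on the gene's strand with 20 bases on either side, and the capitals mark the core, which in all 4 lies on the opposite strand and therefore reads GCNNNGTCA.
Sod1, chr16:90220686-90220734, plus strand: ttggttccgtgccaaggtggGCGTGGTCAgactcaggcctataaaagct
Prdx1, chr4:116685446-116685494, plus strand: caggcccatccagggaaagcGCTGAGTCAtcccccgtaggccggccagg
Gclm, chr3:122245403-122245451, plus strand: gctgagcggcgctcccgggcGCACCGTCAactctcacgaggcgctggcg
Txnrd1, chr10:82859094-82859142, plus strand: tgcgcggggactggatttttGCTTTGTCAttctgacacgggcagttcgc
All positions are GRCm38.p6. The Sod1 core began 56 bases, the Txnrd1 core 92 bases, the Prdx1 core 133 bases and the Gclm core 134 bases before the RefSeq start, which for Txnrd1 is a start inside the span of the gene. The Prdx1 core also holds the AP-1 motif TGAGTCA. That motif or its complement TGACTCA was present in 3 genes of the set, Prdx1, Glrx and Srxn1, and in 5.16% of all genes. The median log2 fold change between the genotypes was −0.02 for the 7 genes with the core and −0.06 for the other genes of the set with a promoter. Over all genes with a promoter and a mean RPKM of at least 1, it was −0.025 with the core and −0.021 without. These differences were not tested.

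Total counts were 23649233 to 33202086 per library (median 29763105 in CM and 24908932 in CM/miR-126Δ/Δ), and 3 counts, taken as the detection limit, corresponded to 0.0908 to 0.131 CPM. Counts carry no molecular identifiers, so that limit covers counting error only. Mir126a, the deleted gene, gave counts of 4, 5, 0, 2 and 3 across CM mice 1 to 5 against 0 in every CM/miR-126Δ/Δ mouse, so these counts are too low to check the genotype of a single library. LSK markers were present in all libraries, with Kit at 702 to 1001 CPM, Cd34 at 791 to 1025 CPM and Ly6a (Sca-1) at 43.6 to 70.3 CPM. The precursor transcript Rn45s took 14.8% to 18.5% of counts in CM and 16.6% to 22.6% in CM/miR-126Δ/Δ libraries, and the RNA concentration was 20.6 to 40.9 and 16.1 to 29.5 ng/µl. Xist counts divided each genotype into 3 mice (numbers 1 to 3) with at least 57095 counts and 2 mice (numbers 4 and 5) with at most 21.

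Nearly the whole set was expressed in LSK cells. All 39 genes had counts, 38 had a mean RPKM of at least 1 in a genotype and 29 a mean RPKM of at least 10. On the RPKM scale, which allows levels of different genes to be compared, the order was led by Gpx1 (mean of the 10 mice 485 RPKM), the cytosolic selenium-dependent glutathione peroxidase, which ranked 36 among the genes fitted. It was followed by Txnip (278 RPKM), the inhibitor that binds reduced thioredoxin, by Fth1 (203 RPKM), the ferritin heavy chain that stores iron and so keeps it from forming radicals, by Sod1 (134 RPKM), the cytosolic copper-zinc superoxide dismutase, and by Txn1 (119 RPKM), cytosolic thioredoxin. Ftl1 (108 RPKM), Prdx2 (91.3 RPKM) and Prdx6 (81.1 RPKM) came next. The levels of Fth1, Ftl1 and Txn1 are uncertain, since processed copies of these genes exist in the mouse genome. RPKM was computed on the total exon length of each gene, so comparisons between genes are approximate. At the other end stood Gpx3 (1.12 RPKM), the glutathione peroxidase secreted into plasma, and Gpx8 (0.0442 RPKM), an enzyme of the endoplasmic reticulum with 0 to 3 counts per library, at or under the detection limit in all 10. Within pairs of related genes, mean levels over the 10 mice were 134 RPKM for Sod1 and 21.0 RPKM for the mitochondrial Sod2, 119 RPKM for Txn1 and 57.9 RPKM for the mitochondrial Txn2, 50.5 RPKM for Txnrd1 and 10.2 RPKM for the mitochondrial Txnrd2, and 42.3 RPKM for Gclm and 20.6 RPKM for Gclc, the modifier and catalytic subunits of the enzyme that starts glutathione synthesis.

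**Figure D1:**
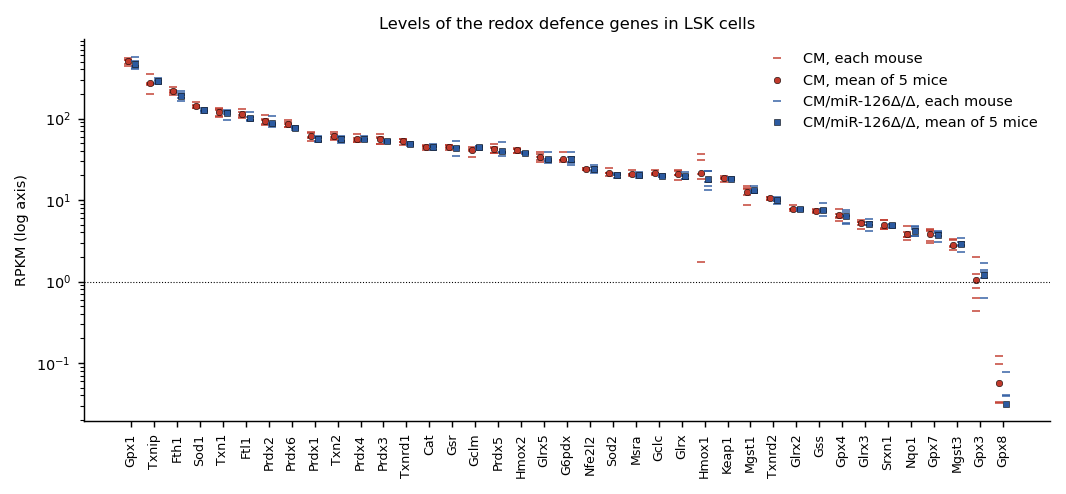
RPKM (log axis) of the 39 redox defence genes in LSK cells, ordered by mean level; dashes are single mice, circles and squares the genotype means over 5 mice each, and the dotted line is an RPKM of 1. Gpx1 leads at 485 RPKM, the genotype means lie close together along the whole order, and Hmox1 has 1 CM mouse far below the others.

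The set lay at close levels in LSK cells of both genotypes. By the 3 cutoffs of the study's methods (p of at most 0.01, at least 1.5-fold, mean RPKM of at least 1) 0 of the 39 genes were called, where 0.288% of the 18747 genes fitted were. No gene of the set had an adjusted p under 0.05 in edgeR's quasi-likelihood test (adjusted p 0.661 to 0.986), and over all genes 0.0107% did. At an unadjusted p under 0.05, 2 genes of the set were lower in CM/miR-126Δ/Δ LSK (5.13%), Sod1 and Prdx6, where 3.32% of all genes fitted and 4.46% of genes at a mean RPKM of 1 or more were. The number higher was 0, where 3.29% of all genes were. DESeq2 gave the same 2 genes at an unadjusted p under 0.05 and also 0 at an adjusted p under 0.05. In 0 of the 39 genes did all 5 mice of one genotype lie above all 5 of the other, a pattern found in 1.1% of all genes. In a set of 39 genes, counts of 0 are near these shares, so they cannot be read as particular to the set.

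The intervals give the range of fold changes that fits the data of each gene, without adjustment for the number of genes. They do not give the size of difference that would have been called. The 95% interval of the fold change lay within 1.25-fold either way for 28 of the 39 genes and within 1.5-fold for 36. The exceptions to the latter were Gpx3, Gpx8 and Hmox1. Fitted log2 fold changes were below 0 for 29 genes and above 0 for 10, and their median was −0.06, against −0.01 over all genes and −0.02 over genes at a mean RPKM of 1 or more. Of the latter genes, 57.5% were below 0.

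**Figure D2:**
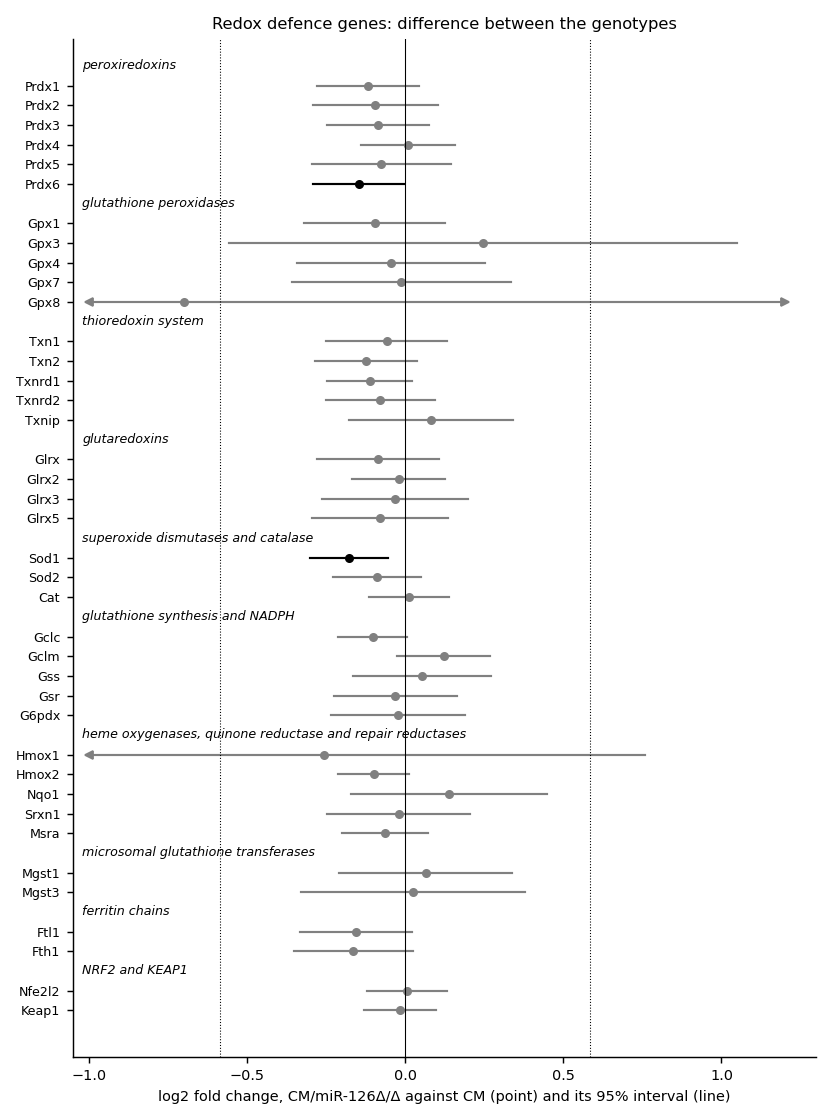
Fitted log2 fold change of each of the 39 genes in CM/miR-126Δ/Δ against CM LSK (points) with its 95% interval (lines), grouped by role; black marks an unadjusted p under 0.05, arrowheads mark intervals that run off the axis, and dotted lines mark 1.5-fold. Of the points, 29 lie left of 0, and the intervals of Sod1 and Prdx6 are the ones that leave out 0.

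Exon length moved with this small shift. The exons of the 39 genes spanned 637 to 4470 bases with a median of 1576, against a median of 2921 for genes at an RPKM of 1 or more. Among all such genes the median log2 fold change was −0.06 at up to 1000 bases (1209 genes), −0.07 at 1000 to 2000 (2376 genes), −0.05 at 2000 to 3000 (2443 genes), −0.02 at 3000 to 4000 (1982 genes) and 0.03 above 4000 (3672 genes). The set had 21 of its 39 genes at 1000 to 2000 bases, of which 16 were below 0, and in that range 75.9% of all genes were below 0. With the trend over exon length subtracted, the median of the set was −0.01 and 23 of 39 genes were below 0. What part exon length had in the values of single genes was not tested.

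Superoxide dismutases and catalase take the first steps against oxidants. Sod1 (chromosome 16, 90220762 to 90226333, mm10) was at 89.7, 92.5, 86.7, 100.5 and 84.7 CPM in CM mice 1 to 5 and at 79.5, 79.3, 85.9, 81.8 and 75.1 CPM in CM/miR-126Δ/Δ mice 1 to 5. CM/miR-126Δ/Δ mouse 3 lay above CM mouse 5, and otherwise every CM mouse was above every CM/miR-126Δ/Δ mouse. The means were 90.8 ± 6.19 and 80.3 ± 3.94 CPM (SD, n = 5 each), and the log2 fold change was −0.18 (SE 0.0577; −11.6%, 95% interval −18.8% to −3.64%). The unadjusted p was 0.00825 and the adjusted p 0.661 in edgeR's quasi-likelihood test. The two-sided exact permutation test of the genotype labels gave p = 0.0159 for Sod1, where 0.00794 is the smallest that 5 against 5 allow. With the exon-length trend subtracted the value was −0.09. Sod2, the manganese enzyme of mitochondria, was at 75.3 to 95.2 CPM in CM and 70.9 to 81.1 CPM in CM/miR-126Δ/Δ LSK (log2 fold change −0.09, 95% interval −0.23 to 0.05). Cat, encoding catalase, was at 105.4 to 120.0 and 104.0 to 125.9 CPM (0.01, −0.11 to 0.14). Both overlapped between the genotypes.

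The peroxiredoxins are abundant thiol peroxidases. Prdx6 (chromosome 1, 161240112 to 161251210), which also acts on oxidised phospholipids, was at 238.0, 224.1, 193.7, 211.5 and 193.7 CPM in CM mice 1 to 5 and at 195.7, 189.5, 202.6, 189.0 and 181.4 CPM in CM/miR-126Δ/Δ mice 1 to 5. CM mice 1, 2 and 4 stood above all CM/miR-126Δ/Δ mice, and CM mice 3 and 5 within their range. The log2 fold change was −0.15 (SE 0.0671; −9.70%, 95% interval −18.3% to −0.237%; edgeR p = 0.0455, adjusted p = 0.750), and the exact permutation p was 0.0635. Without 1 mouse the unadjusted edgeR p of Prdx6 was 0.0298 to 0.178.

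Prdx1, the cytosolic peroxiredoxin with the site printed above, was at 97.9, 84.4, 81.6, 94.4 and 76.0 CPM in CM and 86.9, 75.9, 81.0, 84.5 and 72.2 CPM in CM/miR-126Δ/Δ mice 1 to 5, with overlapping groups (log2 fold change −0.12, SE 0.0751; edgeR p = 0.141, adjusted p = 0.765; exact permutation p = 0.214). Prdx2, the peroxiredoxin with the highest RPKM of its family and a major protein of red cells, was at 152.2, 131.4, 147.9, 170.9 and 129.2 CPM in CM and 127.9, 120.8, 134.8, 166.2 and 136.0 CPM in CM/miR-126Δ/Δ mice (−0.09, SE 0.0927; edgeR p = 0.329, adjusted p = 0.796; exact permutation p = 0.421). Mouse 4 was the highest for Prdx2 in both genotypes. Of the rest, mitochondrial Prdx3 (−0.08), secretory-pathway Prdx4 (0.01) and Prdx5 (−0.08) gave unadjusted edgeR p-values of 0.277, 0.893 and 0.471. The end of Prdx5 overlaps Trmt112 (7.59 CPM), and the use of strand in counting is not stated.

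Glutathione peroxidases use glutathione to remove peroxides. Gpx1 was at 551.8, 459.6, 554.2, 575.5 and 482.0 CPM in CM mice 1 to 5 and at 428.5, 435.8, 532.4, 599.0 and 457.5 CPM in CM/miR-126Δ/Δ mice 1 to 5. Mouse 4 was again the highest of each genotype, and the groups overlapped (log2 fold change −0.10, SE 0.104; edgeR p = 0.367, adjusted p = 0.822; exact permutation p = 0.373). Gpx4, which acts on lipid peroxides and guards against ferroptosis, was at 8.19 to 11.5 CPM in CM and 7.36 to 11.2 CPM in CM/miR-126Δ/Δ LSK (−0.04, 95% interval −0.34 to 0.25). Processed copies of Gpx4 exist in the mouse genome, and reads shared with them make its level uncertain. Gpx7, of the endoplasmic reticulum, gave −0.01 (−0.36 to 0.33). For Gpx3, at 0.694 to 3.27 CPM in CM and 1.00 to 2.70 CPM in CM/miR-126Δ/Δ LSK, the interval was wide (log2 fold change 0.25, −0.56 to 1.05). The interval of Gpx8 ran from −2.63 to 1.24, so its difference was poorly determined at this depth.

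In the thioredoxin system, Txnip had the highest CPM of the set. It was at 731.3, 560.8, 740.5, 772.4 and 977.9 CPM in CM mice 1 to 5 and at 755.7, 874.0, 735.7, 822.6 and 816.7 CPM in CM/miR-126Δ/Δ mice 1 to 5. The lowest and the highest value both belonged to CM mice, 2 and 5, and the log2 fold change of Txnip was 0.08 (SE 0.122; edgeR p = 0.510, adjusted p = 0.886; exact permutation p = 0.571), turning to −0.01 without CM mouse 2. Txnrd1, the cytosolic thioredoxin reductase, was at 187.9 to 226.3 CPM in CM and 184.3 to 205.3 CPM in CM/miR-126Δ/Δ LSK (−0.11, 95% interval −0.25 to 0.02). Its groups overlapped only through CM mouse 3, whose value of 187.9 CPM lay within the CM/miR-126Δ/Δ range. Txn1 (−0.06), Txn2 (−0.12) and Txnrd2 (−0.08) had unadjusted edgeR p-values of 0.518, 0.123 and 0.347. Txn1 has processed copies in the mouse genome, so its level is uncertain.

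Glutaredoxins reduce protein disulfides with glutathione. Glrx5, a mitochondrial protein of iron-sulfur cluster assembly with the highest RPKM of this family, was at 39.1, 30.6, 33.9, 36.3 and 29.1 CPM in CM and at 30.0, 28.6, 32.3, 38.7 and 30.3 CPM in CM/miR-126Δ/Δ mice 1 to 5. The groups overlapped (log2 fold change −0.08, SE 0.10; edgeR p = 0.435, adjusted p = 0.861; exact permutation p = 0.476). All 4 glutaredoxins had fitted values between −0.09 and −0.02, and none passed the test.

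Glutathione is made by the glutamate-cysteine ligase of Gclc and Gclm and by Gss, and is kept reduced by Gsr with NADPH that comes in part from G6pdx. The 2 ligase subunits had fitted values of opposite sign, neither with an unadjusted edgeR p under 0.05. Gclc was at 78.4, 75.0, 84.3, 75.7 and 73.6 CPM in CM mice 1 to 5 and at 72.6, 70.4, 74.8, 69.9 and 73.0 CPM in CM/miR-126Δ/Δ mice 1 to 5 (log2 fold change −0.10, 95% interval −0.21 to 0.01; edgeR p = 0.0646, adjusted p = 0.764; exact permutation p = 0.0159). Gclm was at 88.6, 70.8, 82.0, 93.1 and 85.4 CPM in CM and at 92.8, 95.5, 89.9, 85.0 and 94.0 CPM in CM/miR-126Δ/Δ mice (0.12, −0.02 to 0.27; edgeR p = 0.0954, adjusted p = 0.765; exact permutation p = 0.103). Both were named after their values were seen, both overlapped between the genotypes, and the difference between the 2 subunits was not tested. Gsr, glutathione reductase, was at 125.6, 109.1, 128.1, 119.0 and 116.9 CPM in CM and at 91.8, 119.1, 141.3, 117.9 and 115.7 CPM in CM/miR-126Δ/Δ mice, whose mouse 1 and mouse 3 held the lowest and the highest value of all (−0.03, SE 0.0907; edgeR p = 0.732, adjusted p = 0.954; exact permutation p = 0.746). Gss (0.05) and G6pdx (−0.02) gave unadjusted p-values of 0.611 and 0.833 in edgeR, and G6pdx overlaps Ikbkg (69.1 CPM) on the opposite strand.

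The ferritin chains store iron. Fth1 was at 293.0, 308.4, 315.1, 370.8 and 333.5 CPM in CM and at 245.1, 268.8, 307.5, 330.6 and 295.0 CPM in CM/miR-126Δ/Δ mice 1 to 5 (log2 fold change −0.16, SE 0.0875; −10.7%, 95% interval −21.6% to 1.67%; edgeR p = 0.0824, adjusted p = 0.765; exact permutation p = 0.119). Ftl1, the light chain, was at 107.8, 101.8, 98.6, 127.8 and 115.5 CPM in CM and at 93.8, 94.3, 100.1, 116.8 and 90.6 CPM in CM/miR-126Δ/Δ mice (−0.15, SE 0.0826; −10.2%, −20.5% to 1.56%; edgeR p = 0.0820, adjusted p = 0.765; exact permutation p = 0.159). Mouse 4 was the highest of both genotypes for both chains, and the groups overlapped in each. Many processed ferritin copies exist in the mouse genome, so the levels of both are uncertain.

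**Figure D3:**
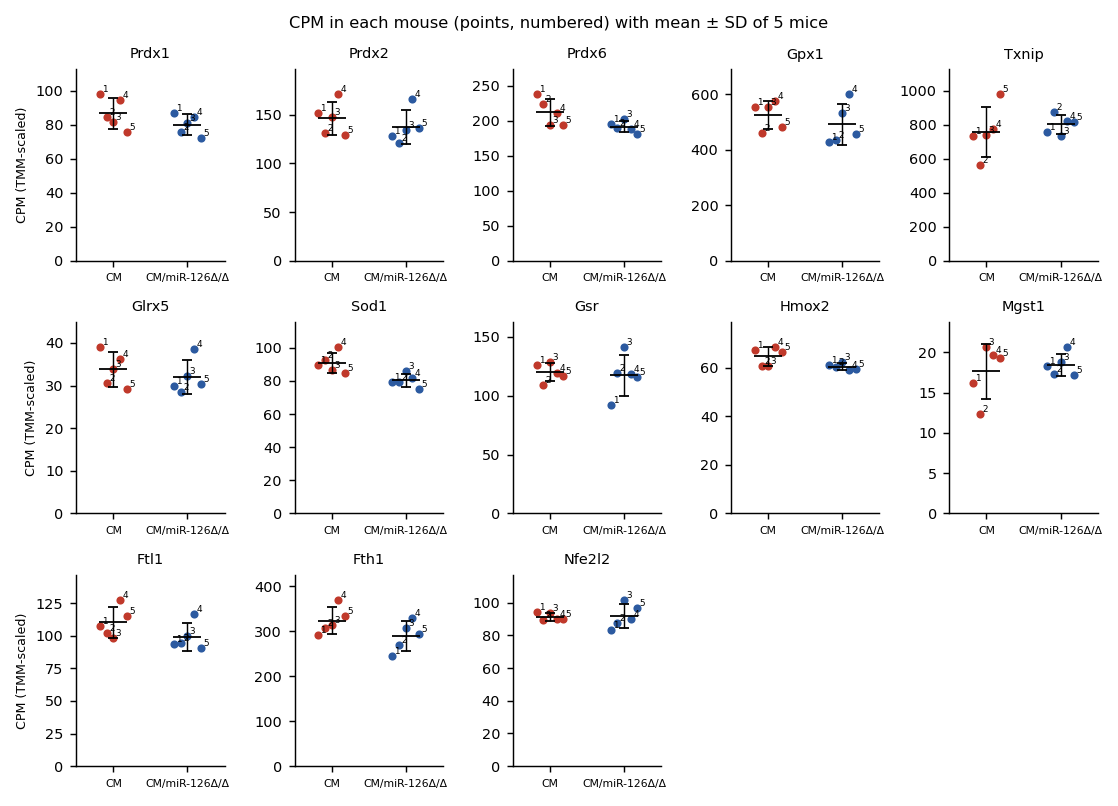
CPM of 13 redox defence genes in each mouse (red, CM; blue, CM/miR-126Δ/Δ; the number is the mouse) with the mean and SD of 5 mice, axes starting at 0. Sod1 overlaps between the genotypes only through CM/miR-126Δ/Δ mouse 3 at 85.9 CPM and CM mouse 5 at 84.7 CPM; the other genes overlap more widely, and mouse 4 is the highest of its genotype for Gpx1, Prdx2, Ftl1 and Fth1.

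The transcripts of NRF2 and its partner KEAP1 differed little between the genotypes. Nfe2l2 was at 94.0, 89.3, 93.8, 89.9 and 89.97 CPM in CM and at 83.0, 87.5, 101.9, 89.9 and 96.6 CPM in CM/miR-126Δ/Δ mice 1 to 5 (log2 fold change 0.01, SE 0.0585, 95% interval −0.12 to 0.13; edgeR p = 0.919, adjusted p = 0.981; exact permutation p = 0.865). The CM mice spanned a coefficient of variation (CV) of 2.52%, the lowest in CM of the 29 genes at or above an RPKM of 10. Keap1 was at 74.3 to 87.9 CPM in CM and 77.9 to 84.5 CPM in CM/miR-126Δ/Δ LSK (−0.02, −0.13 to 0.10). Transcript levels of Nfe2l2 and Keap1 do not report the activity of NRF2, which is set at the protein.

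Of the detoxifying enzymes, Hmox2, the constitutive heme oxygenase, was at 67.5, 60.7, 60.5, 68.6 and 66.4 CPM in CM and at 61.3, 60.2, 62.3, 59.0 and 59.3 CPM in CM/miR-126Δ/Δ mice 1 to 5 (log2 fold change −0.10, SE 0.0528; edgeR p = 0.0799, adjusted p = 0.765; exact permutation p = 0.0714). CM mice 1, 4 and 5 were above all CM/miR-126Δ/Δ mice. Hmox2 overlaps Cdip1 (27.5 CPM) on the opposite strand. Mgst1, a membrane-bound glutathione transferase, was at 16.2, 12.3, 20.7, 19.7 and 19.3 CPM in CM and at 18.3, 17.3, 18.8, 20.6 and 17.2 CPM in CM/miR-126Δ/Δ mice (0.07, SE 0.128; edgeR p = 0.615, adjusted p = 0.920; exact permutation p = 0.698), and turned to −0.04 without CM mouse 2, its lowest. Nqo1 (0.14), a classical NRF2 target, Srxn1 (−0.02), which restores overoxidised peroxiredoxins, Msra (−0.06), a methionine sulfoxide reductase, and Mgst3 (0.02) gave unadjusted edgeR p-values of 0.352, 0.851, 0.338 and 0.885.

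Hmox1, the inducible heme oxygenase, had the widest spread of the 29 genes at or above an RPKM of 10 (CV 61.9% in CM and 25.1% in CM/miR-126Δ/Δ LSK), and was taken up for that after its values were seen. It was at 32.8, 2.71, 48.5, 57.5 and 28.6 CPM in CM mice 1 to 5 and at 20.7, 35.9, 26.2, 36.1 and 23.5 CPM in CM/miR-126Δ/Δ mice 1 to 5. CM mouse 2, with 82 Hmox1 counts, was far below the other 9 mice. The log2 fold change was −0.26 (SE 0.473; edgeR p = 0.598, adjusted p = 0.914; exact permutation p = 0.603). Without CM mouse 2 the Hmox1 value became −0.55 (SE 0.207), with an unadjusted edgeR p-value of 0.0180 and an adjusted one of 0.786. Without CM mouse 4, the highest, it turned to 0.03 (adjusted p = 0.996).

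Markers of macrophages, cells that break down heme with Hmox1, had the same mice at the extremes. The list of 9 markers summed to 208.2, 91.0, 267.4, 290.8 and 233.8 CPM in CM mice 1 to 5 and to 114.4, 149.8, 203.1, 211.3 and 149.9 CPM in CM/miR-126Δ/Δ mice 1 to 5. CM mouse 2 was the lowest and CM mouse 4 the highest of the 10 for both Hmox1 and the sum. The ranks for Hmox1 and the sum were equal in CM mice 1 to 4 and in CM/miR-126Δ/Δ mouse 1. They were furthest apart in CM/miR-126Δ/Δ mouse 2 (4 for Hmox1 and 8 for the sum) and CM mouse 5 (6 and 3). The complement genes C1qa, C1qb and C1qc were at 0.793, 0.760 and 0.760 CPM in CM mouse 2 and at 12.4 to 25.4 CPM in the other CM mice. Vcam1, also a marker of these cells, was at 1.35 CPM in CM mouse 2 and 29.2 to 67.6 CPM in the other CM mice. All 9 markers were lower in CM/miR-126Δ/Δ LSK by fitted value (median log2 fold change −0.48), and 0 of 9 had an unadjusted edgeR p under 0.05. No marker of the list was at 0 in any library. In the same CM mouse 2 the erythroid markers summed to 14.97 CPM, against 47.9 to 111.2 CPM in the other CM mice. The mast cell-basophil list was also lowest in CM mouse 2, at 284.0 CPM, against 337.8 to 507.9 CPM in the other mice of both genotypes. The LSK, neutrophil, B cell, T cell and megakaryocyte lists were not lowest there. The cells had been depleted of lineage-positive cells and then sorted as lineage-negative, a gate meant to remove mature macrophages and erythroid cells. The part of such cells in the Hmox1 values was not tested, and in these bulk libraries fewer cells of a type and less RNA per cell cannot be told apart.

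**Figure D4:**
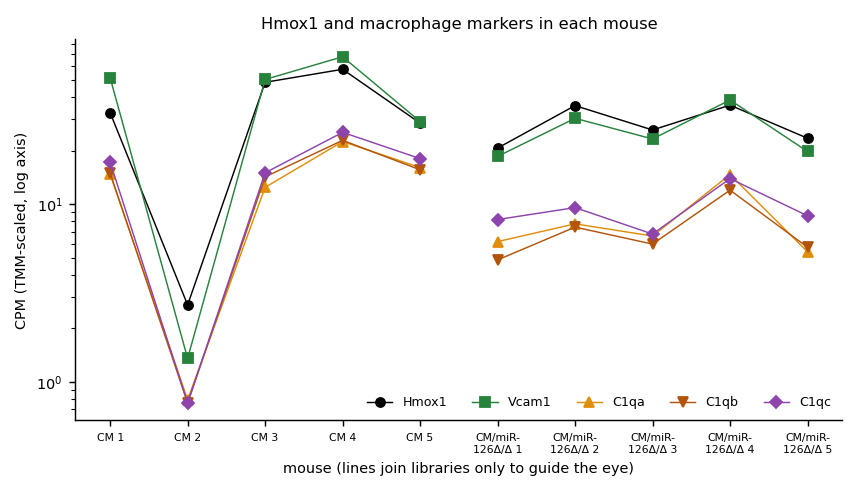
CPM (log axis) of Hmox1, Vcam1, C1qa, C1qb and C1qc in each of the 10 mice; lines join points only to guide the eye. All 5 genes are lowest in CM mouse 2, where Hmox1 is at 2.71 CPM, and highest in CM mouse 4, where it is at 57.5 CPM.

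Mice of the same genotype also differed from one another across the set. For each mouse the median over 38 genes of the log2 ratio to the mean of all mice was 0.07, −0.05, 0.02, 0.14 and −0.03 in CM mice 1 to 5 and −0.05, −0.06, 0.02, 0.02 and −0.07 in CM/miR-126Δ/Δ mice 1 to 5. The SD between mice of a genotype was 0.0627 for this median. Over all genes at a mean RPKM of 1 or more, the median per mouse lay between −0.013 (CM/miR-126Δ/Δ mouse 2) and 0.024 (CM mouse 1). CM mouse 4 was the highest and CM mouse 2 lay with the lower CM/miR-126Δ/Δ mice. Of the 29 genes at or above an RPKM of 10, 13 had their highest CM value in CM mouse 4 and 10 in CM mouse 1, while 11 had their lowest in CM mouse 2. In CM/miR-126Δ/Δ LSK, 13 were highest in mouse 3 and 11 in mouse 4, and 9 were lowest in mouse 5. Which mouse held the extreme was not counted over all genes, so these counts cannot be read as particular to the set. The median CV of these 29 genes was 9.65% in CM and 7.52% in CM/miR-126Δ/Δ LSK, against 7.69% and 7.82% over all 6492 genes of that level, and the CV was higher in CM for 19 of the 29, where it was so for 48.0% of all such genes.

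**Figure D5:**
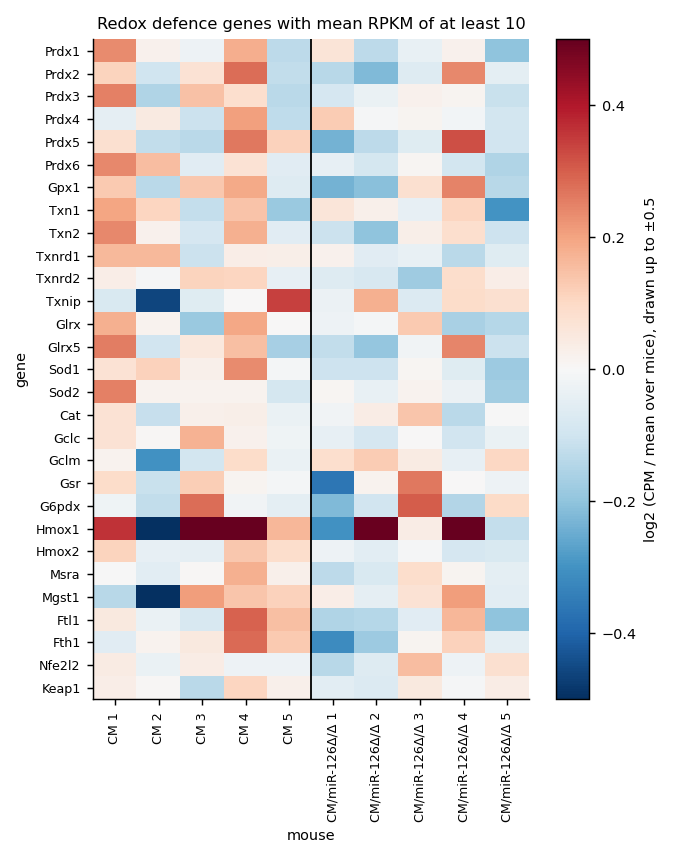
Log2 ratio of CPM to the mean over the 10 mice (colour, drawn up to ±0.5) for the 29 redox defence genes at or above a mean RPKM of 10, with the genotypes divided by the black line. The reds gather in CM mice 1 and 4, with 10 and 13 genes at their highest CM value there, and no block of genes is high in all mice of one genotype and low in all of the other.

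A further 103 genes of redox metabolism, none in the set, were read from the same fit, and 102 had counts. At an unadjusted p under 0.05, 5 were lower and 1 was higher in CM/miR-126Δ/Δ LSK, where 3.32% and 3.29% of all genes fitted were. None had an adjusted p under 0.05. Among 10 NRF2 partners and regulators 1 was lower, Mafk, a small MAF protein that pairs with NRF2 (log2 fold change −0.25, edgeR p = 0.0203, adjusted p = 0.746, exact permutation p = 0.0714). Among 23 genes of glutathione use and cystine import 2 were lower, Gstp1, a glutathione transferase (−0.31, p = 0.0202, adjusted p = 0.746, exact permutation p = 0.0397), and Slc3a2, the heavy chain of the cystine transporter and other amino acid transporters (−0.21, p = 0.00735, adjusted p = 0.661, exact permutation p = 0.0238). Among 10 genes of the superoxide-producing NADPH oxidase 1 was lower, Ncf4, a cytosolic subunit (−0.23, p = 0.0382, adjusted p = 0.748, exact permutation p = 0.0794). None of the 26 other thiol and selenium proteins, the 9 FOXO and ATM regulators or the 12 genes of iron and heme handling had an unadjusted p under 0.05 in either direction.

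Among 13 genes of NADPH supply 1 was lower and 1 higher. Idh2, the mitochondrial isocitrate dehydrogenase that makes NADPH, was lower (log2 fold change −0.15, edgeR p = 0.0329, adjusted p = 0.746, exact permutation p = 0.0317). Nnt, the transhydrogenase of the inner mitochondrial membrane that makes NADPH from NADH, was at 53.9, 51.5, 58.8, 53.6 and 53.0 CPM in CM mice 1 to 5 and at 88.9, 87.6, 58.9, 78.9 and 86.9 CPM in CM/miR-126Δ/Δ mice 1 to 5. All CM/miR-126Δ/Δ mice were above all CM mice, but mouse 3 by very little, at the CM level. The log2 fold change of Nnt was 0.57 (SE 0.0949, 1.48-fold; edgeR p = 3.2e-05, adjusted p = 0.121; DESeq2 adjusted p = 0.000117; exact permutation p = 0.00794). Nnt was the one gene of the 102 whose groups did not overlap, a pattern found in 1.1% of all genes. Its adjusted p in edgeR was 0.000482 without CM/miR-126Δ/Δ mouse 3 and up to 0.467 without another mouse. C57BL/6J mice are known to carry a truncated Nnt gene, and the labels do not give the Nnt allele of these mice.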

How the data were processed

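LSK libraries (ribosomal depletion, stranded kit) came from poly(I:C)-treated mice, 1 per mouse and 5 per genotype, with genotype and number taken from the sample titles. The authors trimmed the reads, mapped them to mm10 by TopHat2 and took counts per RefSeq gene by HTSeq 0.6.1p1. The deposited counts are whole reads for 25078 genes, with total exon length. A second deposited table, of normalized values, was not used.

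edgeR 4.0.16 (R 4.3.3) was run on the 18747 genes that had any count, with TMM scaling, the two-sided quasi-likelihood F-test in its earlier form and genotype as sole term, and Benjamini-Hochberg adjustment covered all of them. CPM is the count over the TMM-scaled library size, and RPKM is CPM divided by exon length. SE is the log2 fold change over the square root of F. Exact permutation tests of the genotype labels were two-sided and complete (scipy 1.17.1). Alternatives were DESeq2 1.42.0, RLE factors, other filters, the newer quasi-likelihood, a replicate block, Rn45s left out, removal of the exon-length trend (lowess) and each mouse left out. Xist as a covariate was added after the data were seen.

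The set, the lists and the tests were chosen with earlier results of these data known. Values in every mouse are given for genes with an unadjusted p under 0.05 with or without the block and for the highest RPKM of each family, and Gclc, Gclm and Hmox1 were added after their values were seen. Promoters and the miRNA came from RefSeq (GRCm38.p6; 34 of 39 genes matched) and 3′ untranslated regions from the longest GENCODE M1 transcript of each gene, by sequence only. Among marker lists other than the macrophage list, 2 of 10 LSK genes (Hlf and Mecom) were higher at an unadjusted edgeR p under 0.05. In the erythroid (6 of 10 had counts), neutrophil (10), B cell (8), T cell (6 of 7 in the table), megakaryocyte (6) and mast cell-basophil (6) lists, 0 genes differed at that level. Libraries of a genotype differed by more than sampling noise (chi-square per gene at least 9.99).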

Additional observations from a re-analysis of the deposited data

Results flagged for a closer look

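In 2 of the 76 groups of 5 mice examined, 1 mouse lay far from the other 4 by Dixon's 95% criterion, where chance gives about 1 in 20 groups, or 3.8. Prdx5 was at 65.1 CPM in CM/miR-126Δ/Δ mouse 4 and at 44.3 to 49.98 CPM in the other 4 mice of that genotype, each with at least 1148 counts. G6pdx was at 89.8 CPM in CM mouse 3 and at 67.9 to 73.0 CPM in the other 4 CM mice, each with at least 2056 counts. G6pdx was also highest in mouse 3 of CM/miR-126Δ/Δ, at 91.2 CPM.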

How the results depend on the processing

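Under all alternatives run, 0 genes of the set were called by the 3 cutoffs and 0 had an adjusted p under 0.05. Over all genes, 54 were called, 111 with no requirement on RPKM and 33 to 128 with 1 mouse left out. The main fit thus called fewer genes than the study reports from these mice. The number with an adjusted p under 0.05 was 2 in edgeR, 45 in DESeq2, 4 with filterByExpr, 4 on genes at an RPKM of 1 or more, 4 with Xist as a covariate and 1 to 7 with 1 mouse left out. The 2 genes of the set lower at an unadjusted p under 0.05 became 1, Sod1, with RLE factors, with filterByExpr, on genes at an RPKM of 1 or more and without Rn45s, and 1 to 4 with 1 mouse left out (4 without CM mouse 3, which were Prdx6, Txnrd1, Sod1 and Ftl1). Without CM mouse 3 the genes called over all genes also rose, from 54 to 128. The number higher was 0, or 0 to 1 with 1 mouse left out (Gclm, without CM mouse 4 or without CM/miR-126Δ/Δ mouse 4). The share of all genes at that unadjusted p was not taken for these fits, so the counts cannot be read as particular to the set. With Xist as a covariate 3 were lower (Prdx6, Sod1 and Fth1), where 3.54% of all genes were. Sod1 had an unadjusted p under 0.05 in each of these fits (0.00478 to 0.0377 with 1 mouse left out). The genotypes were separated by 0 genes of the set, by 1 on unscaled CPM (Sod1, where 0.971% of all genes were) and by 0 to 2 with 1 mouse left out (Txnrd1 without CM mouse 3, where 2.53% of all genes were, and Sod1 with Gclc without CM mouse 5 or CM/miR-126Δ/Δ mouse 3, where 2.07% and 2.31% were). The median log2 fold change of the set was −0.08 to −0.02 with 1 mouse left out. Subtracting the exon-length trend turned Gsr to 0.00475 and moved Sod1 to −0.09 and Hmox2 to −0.04. With 1 mouse left out the range crossed 0 for Txnip (−0.0083 to 0.21), Gsr (−0.11 to 0.056), Mgst1 (−0.040 to 0.14), Nfe2l2 (−0.034 to 0.052) and Hmox1 (−0.55 to 0.032). The causes were not tested.

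The mouse numbers run from 1 to 5 in both genotypes, and nothing in the labels says that equal numbers share a litter or day. In the column headers, however, equal mouse numbers carry neighbouring library numbers, and the Xist counts divided both genotypes between the same mouse numbers. Deviations from the genotype means correlated at 0.208, 0.198, 0.439, 0.321 and 0.0337 for numbers 1 to 5 over 13442 genes, and not every mouse correlated best with its own number. Whether equal numbers were handled together cannot be settled here. The main fit did not pair the mice, and the fit with the block is given beside it. With the replicate number as a block, 115 genes were called, 20 had an adjusted p under 0.05, and 5 genes of the set were lower at an unadjusted p under 0.05 (Prdx1, Prdx6, Sod1, Ftl1 and Fth1), where 4.62% of all genes were. The exact test over the 5 differences between equal numbers gave 0.0625 for Sod1 (difference in mean CPM −10.5), the smallest p it allows. Prdx1, Sod2, Gclc and Fth1 gave the same p in that test. How many of all genes did so was not counted. Depth limits Gpx8 and, less so, Gpx3, with 21 counts in its lowest library.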
